A study of Homo sapiens with 6 samples.

Results

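Aldo-keto reductases and genes of the aryl hydrocarbon receptor (AhR) were followed in 2 cell lines of pancreatic ductal adenocarcinoma after chemical inhibition of retinoic acid receptor γ (RARγ). The 10 genes were taken by symbol from 53826 entries: 5 aldo-keto reductases (AKR1B1, AKR1B10, AKR1C1, AKR1C2 and AKR1C3), the receptor AHR, its repressor AHRR and the AhR targets CYP1A1, CYP1B1 and TIPARP. Each symbol occurred in 1 entry. PK-1 and Panc-1, both established human lines, were left as control or given RARγi-1 (LY2955303) or RARγi-2 (MM11253) for 24 h, and 1 library per condition was made from polyadenylated RNA with a strand-marking kit. Both compounds are RARγ antagonists, per the study. Their doses in the sequencing experiment and the vehicle of the controls are not stated, and a treatment entry of both RARγi-2 libraries names RARγi-1, so the library titles were followed.

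Aldo-keto reductases are NADPH-dependent enzymes that reduce aldehydes and ketones, including lipid peroxidation products, steroids and prostaglandins. AKR1B10 and, less efficiently, other members also turn retinal into retinol, which takes it out of the route to retinoic acid, the ligand of RARγ. Several AKR1B and AKR1C genes are classical targets of the oxidative stress factor NRF2. AhR is a ligand-activated transcription factor that pairs with ARNT, binds DNA at a short core motif and switches on cytochrome P450 genes such as CYP1A1 and CYP1B1, together with AHRR and TIPARP, which restrain it.

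Levels are given in TPM, transcript abundance scaled to a common total per library, after the deposited log2 values had been put back on the linear scale. A deposited value of 0 stands for 1 TPM or less and is called the floor here. To give a log2 fold change, 1 was added to each TPM value and a treated library was divided by the control of its line before taking log2, and a gene was counted as past 2-fold beyond 1 on that scale. With 1 library per condition there are no replicates, no test was made, and no value has an error of its own. The only spread at hand, that between both treated libraries of a line over entries of like level, was 0.34 to 0.44 on the log2 scale in PK-1 and 0.27 to 0.33 in Panc-1, and it includes real differences between the compounds.

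The 3 AKR1C genes lie together on chromosome 10. The RefSeq start region of AKR1C1 and the 1 found for AKR1C2 are near copies. They are shown because AKR1C1 and AKR1C2 had the largest differences from the control among the 10, in PK-1. A start region of AKR1C3 is shown beside them for comparison. The 250 bases before an annotated start are given 5′ to 3′ in the direction of transcription (GRCh38.p14), with capitals on the match to CCAAT, searched on both strands and found here as ATTGG, its reverse complement. The windows are chr10:4963165-4963414 (plus strand) for AKR1C1, chr10:5003858-5004107 (minus strand) for AKR1C2 and chr10:5094164-5094413 (plus strand), 1 of 2 annotated starts, for AKR1C3. The AKR1C2 gene spans 4987775 to 5018000, so the start shown for it lies inside the gene. The region before its outer end was not searched.
AKR1C1: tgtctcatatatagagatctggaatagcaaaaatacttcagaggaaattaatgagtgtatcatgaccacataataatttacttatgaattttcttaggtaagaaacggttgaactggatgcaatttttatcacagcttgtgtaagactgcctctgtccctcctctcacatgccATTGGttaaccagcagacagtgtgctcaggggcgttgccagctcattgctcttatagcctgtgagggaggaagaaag
AKR1C2: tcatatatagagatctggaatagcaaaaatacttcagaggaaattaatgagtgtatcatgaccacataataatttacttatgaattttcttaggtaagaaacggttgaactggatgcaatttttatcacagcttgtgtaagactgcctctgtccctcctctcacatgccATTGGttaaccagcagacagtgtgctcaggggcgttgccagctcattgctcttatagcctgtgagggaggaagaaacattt
AKR1C3: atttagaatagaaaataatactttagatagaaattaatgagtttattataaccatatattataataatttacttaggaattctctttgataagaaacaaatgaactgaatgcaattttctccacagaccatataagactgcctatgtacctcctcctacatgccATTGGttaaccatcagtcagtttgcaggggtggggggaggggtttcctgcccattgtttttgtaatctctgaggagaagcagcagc
The AKR1C1 and AKR1C2 windows aligned over 246 bases with 1 mismatch (99.6% identical), and those of AKR1C1 and AKR1C3 over 227 bases with 42 mismatches (81.5%). Each of the 3 holds the CCAAT letters once, first base 77, 81 and 86 bases before the start, and 32.0% of the 35116 windows of this length in the table hold them. Neither the AhR core GCGTG nor the antioxidant response motif TGACNNNGC, each searched on both strands, occurs in these 3 windows. Only these 250 bases were searched, so their absence says nothing about sites further from the start. Over all windows, 32.2% hold the first and 10.9% the second.

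The transcripts are alike too, which bears on how reads were divided among these genes. The GENCODE 29 transcripts of AKR1C1 and AKR1C2 were 97.6% identical over 3750 aligned bases, and 39.5% of the 75-base windows of AKR1C2 occurred unchanged in AKR1C1. For AKR1C3, 3.98% of such windows occurred in AKR1C1 and 6.87% in AKR1C2. How the authors assigned reads that fit several genes is not given in the sources used here, so the split between AKR1C1 and AKR1C2 is uncertain.

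In PK-1 the AKR1C genes were far higher in both treated libraries than in the control. AKR1C1 (Entrez gene 1645), a 20α-hydroxysteroid dehydrogenase that inactivates progesterone, was at 45.1 TPM in the control, 771 TPM under RARγi-1 and 1618 TPM under RARγi-2. These levels are 17.1-fold and 35.9-fold that of the control, or 4.06 and 5.13 as log2 fold changes. AKR1C1 ranked 7th from the top of 13965 entries above the floor in the RARγi-1 comparison and 6th of 14028 in the RARγi-2 comparison. By level it held place 3486 among all entries in the control, place 175 with RARγi-1 and place 92 with RARγi-2.

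AKR1C2 (1646), a 3α-hydroxysteroid dehydrogenase that inactivates dihydrotestosterone, was at 39.1 TPM in the control of PK-1, 216 TPM under RARγi-1 and 456 TPM under RARγi-2. Its log2 fold changes were 2.44 and 3.51, which placed it 87th and 52nd from the top. AKR1C3 (8644), a 17β-hydroxysteroid dehydrogenase that also makes prostaglandin F, was at 119 TPM, 290.2 TPM and 397 TPM, with log2 fold changes of 1.28 and 1.73. Every one of these 6 fold changes exceeded 2-fold and the spread for its level. In bulk RNA, more cells carrying a transcript and more transcript per cell cannot be told apart.

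**Figure D1:**
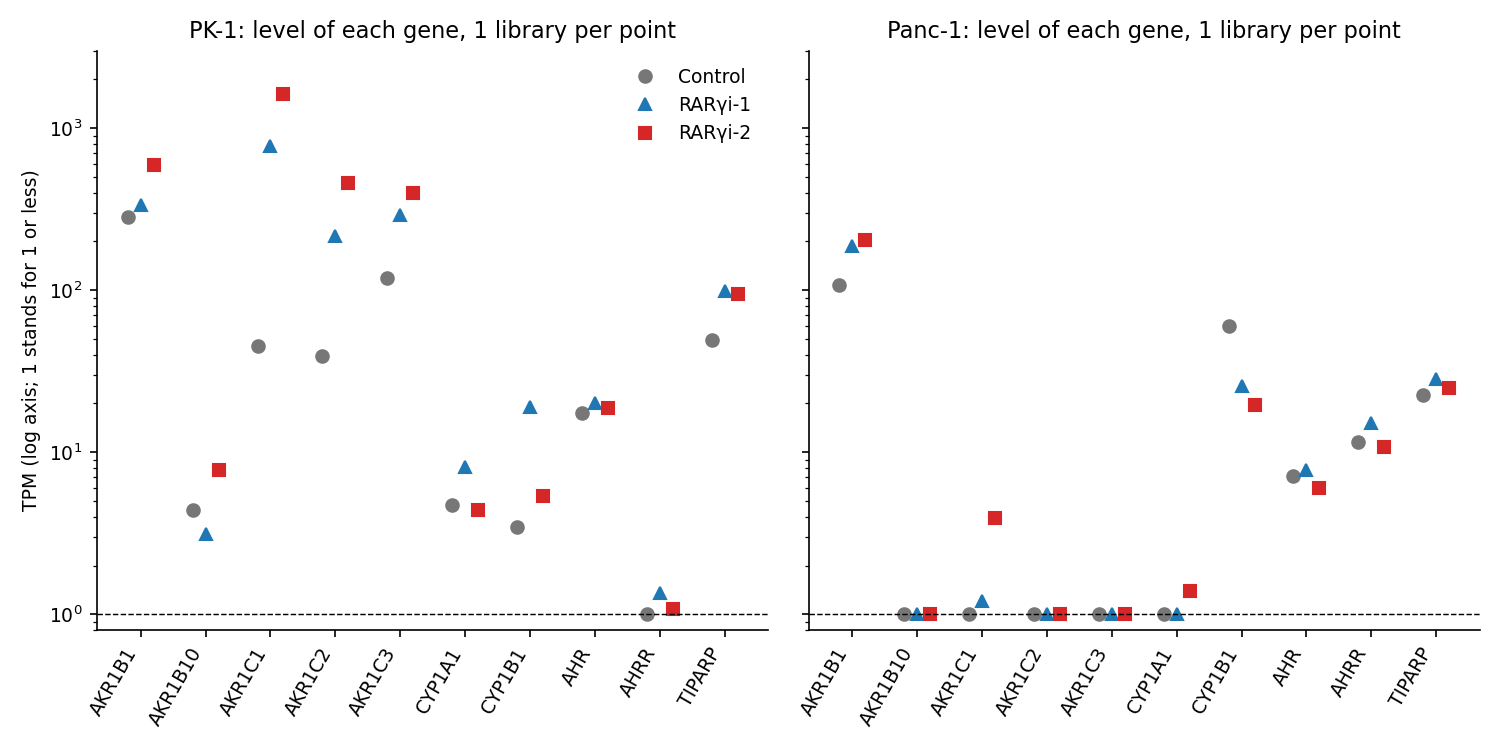
Level of the 10 genes for both cell lines, PK-1 on the left, in TPM on a log axis, with 1 point per library (grey circles control, blue triangles RARγi-1, red squares RARγi-2) and a dashed line at the floor of 1 TPM. In PK-1 the treated points of AKR1C1, AKR1C2 and AKR1C3 stand above the control, while in Panc-1 AKR1C2, AKR1C3 and AKR1B10 lie at the floor in all 3 libraries.

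The make-up of the AKR1C transcripts in PK-1 differed as well. The summed level of the 3 genes was 203 TPM in the control, 1277 TPM under RARγi-1 and 2471 TPM under RARγi-2, which is 6.29-fold and 12.2-fold the control. AKR1C3 made up 58.5% of this sum in the control, 22.7% with RARγi-1 and 16.1% with RARγi-2. AKR1C1 made up 22.2%, 60.4% and 65.5%, so that it was the most abundant of the 3 in both treated libraries and AKR1C3 was in the control. AKR1C2 stayed between 16.9% and 19.3% of the sum. The ratio of AKR1C1 to AKR1C2, the pair whose reads are hardest to separate, was 1.15 in the control, 3.57 with RARγi-1 and 3.55 with RARγi-2.

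**Figure D2:**
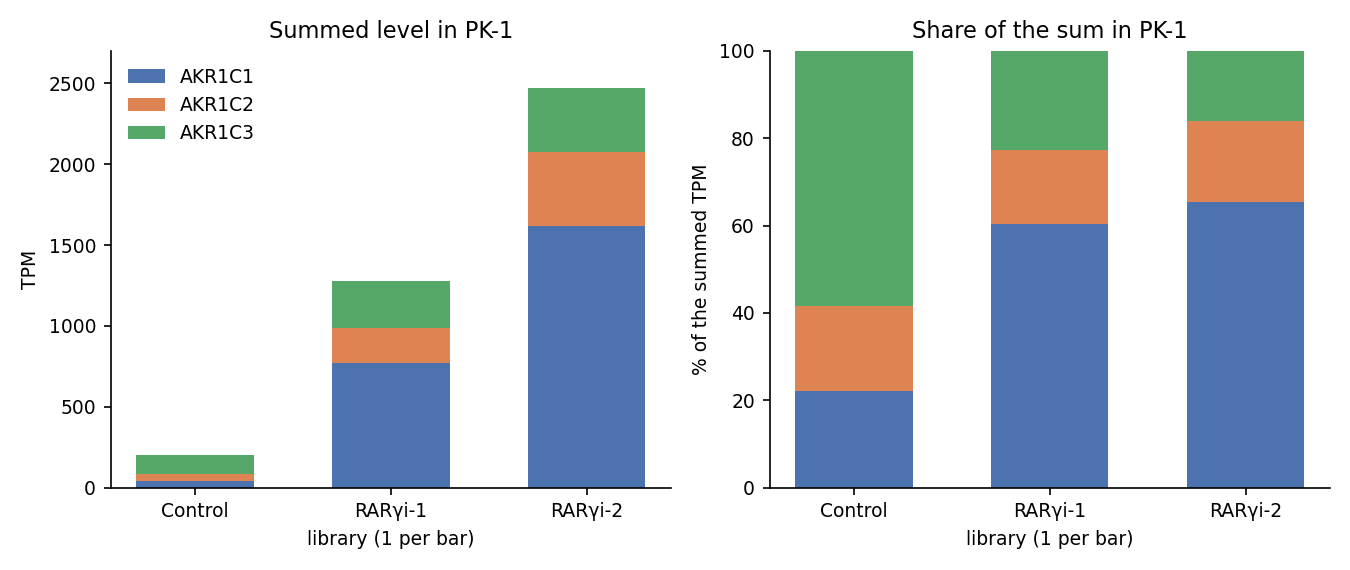
Summed level of AKR1C1, AKR1C2 and AKR1C3 in the PK-1 libraries in TPM (left) and each gene's percentage of that sum (right), 1 bar per library. The sum was 203, 1277 and 2471 TPM, and the AKR1C1 share was 22.2%, 60.4% and 65.5%, in the order control, RARγi-1 and RARγi-2.

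In Panc-1 the same genes were at or near the floor. AKR1C2 and AKR1C3 stayed at the floor with and without treatment. AKR1C1 was at the floor in the control, at 1.21 TPM with RARγi-1 and at 3.95 TPM with RARγi-2. Its log2 fold changes of 0.14 and 1.31 are measured against the floor and are lower limits, and the second passed 2-fold. With a minimum of 5 TPM in either library, AKR1C1 dropped out of the Panc-1 comparisons. Against the Panc-1 control, the PK-1 control was at least 45.1-fold higher for AKR1C1, 39.1-fold for AKR1C2 and 119-fold for AKR1C3, with the floor taken as 1 TPM. A TPM table keeps no read numbers, so the depth behind values near the floor is unknown.

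AKR1B1 (231), aldose reductase, which turns glucose into sorbitol, was the only one of the 5 reductases that was clearly above the floor in both lines. In PK-1 it was at 281 TPM in the control, 335 TPM under RARγi-1 and 589.7 TPM under RARγi-2. The same order in Panc-1 gave 107 TPM, 186 TPM and 203 TPM. All 4 treated libraries were above their control, by 0.25 and 1.07 for PK-1 and by 0.80 and 0.92 for Panc-1 on the log2 scale. The value of 0.25 lies within the spread for that level in PK-1, the other 3 exceed the spread, and 1.07 alone passed 2-fold.

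AKR1B10 (57016), the retinal reductase of the family, was low. In PK-1 it was at 4.41 TPM in the control, 3.13 TPM under RARγi-1 and 7.74 TPM under RARγi-2, and the log2 fold changes were -0.39 and 0.69. It was thus lower than the control in the RARγi-1 library and higher in the RARγi-2 library, with no value past 2-fold. All 3 Panc-1 libraries had it at the floor. Its transcript was 90.9% identical to that of AKR1B15, which was at the floor in all 6 libraries.

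**Figure D3:**
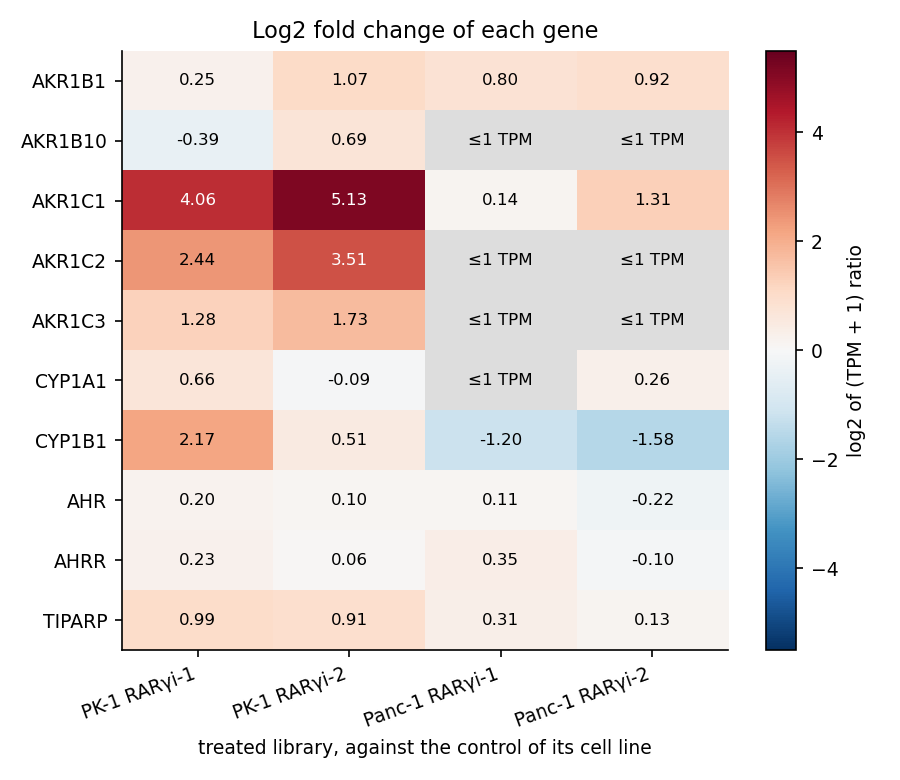
Log2 fold change of each of the 10 genes (rows) in the 4 comparisons of a treated library with the control of its line (columns), on the scale of log2 of (TPM + 1), red for higher and blue for lower. Grey cells are pairs with both libraries at the floor; the highest value is that of AKR1C1 in PK-1 with RARγi-2, at 5.13, and the lowest that of CYP1B1 in Panc-1 with RARγi-2, at -1.58.

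Counted together, 4 of the 10 genes were past 2-fold up in PK-1 with RARγi-1, where 9.25% of all entries above the floor were. The 4 were AKR1C1, AKR1C2, AKR1C3 and CYP1B1. With RARγi-2 in PK-1, AKR1B1, AKR1C1, AKR1C2 and AKR1C3 were past 2-fold up, again 4 of 10, beside 12.1% of all entries. In the other direction 0 of 10 were past 2-fold in either PK-1 comparison, beside 4.96% (RARγi-1) and 12.6% (RARγi-2) of all entries. The median log2 fold change of the 10 was 0.83 and 0.80, and that of all entries above the floor was 0.15 and 0.03. The 10 genes were chosen with earlier results of these data known, and reads of AKR1C1 and AKR1C2 are hard to separate. The counts therefore do not show that such genes pass 2-fold more often than others.

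In Panc-1, 6 of the 10 genes were above the floor in the RARγi-1 comparison and 7 in the RARγi-2 comparison. With RARγi-1, 0 of 6 were past 2-fold up, beside 7.4% of all entries, and 1 of 6, CYP1B1, was past 2-fold down, beside 6.03%. With RARγi-2, 1 of 7 was past 2-fold up (AKR1C1, beside 8.5%) and 1 of 7 down (CYP1B1, beside 11.2%). The median of the genes above the floor was 0.23 under RARγi-1 and 0.13 under RARγi-2, and that of all entries 0.09 and -0.03. Of the 10 genes, 6 were above the floor in all 4 comparisons, and 0 of these passed 2-fold the same way in all 4, beside 2.72% upward and 2.21% downward of 12341 such entries, so a count of 0 is near the background. The comparisons of 1 line share a control library.

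**Figure D4:**
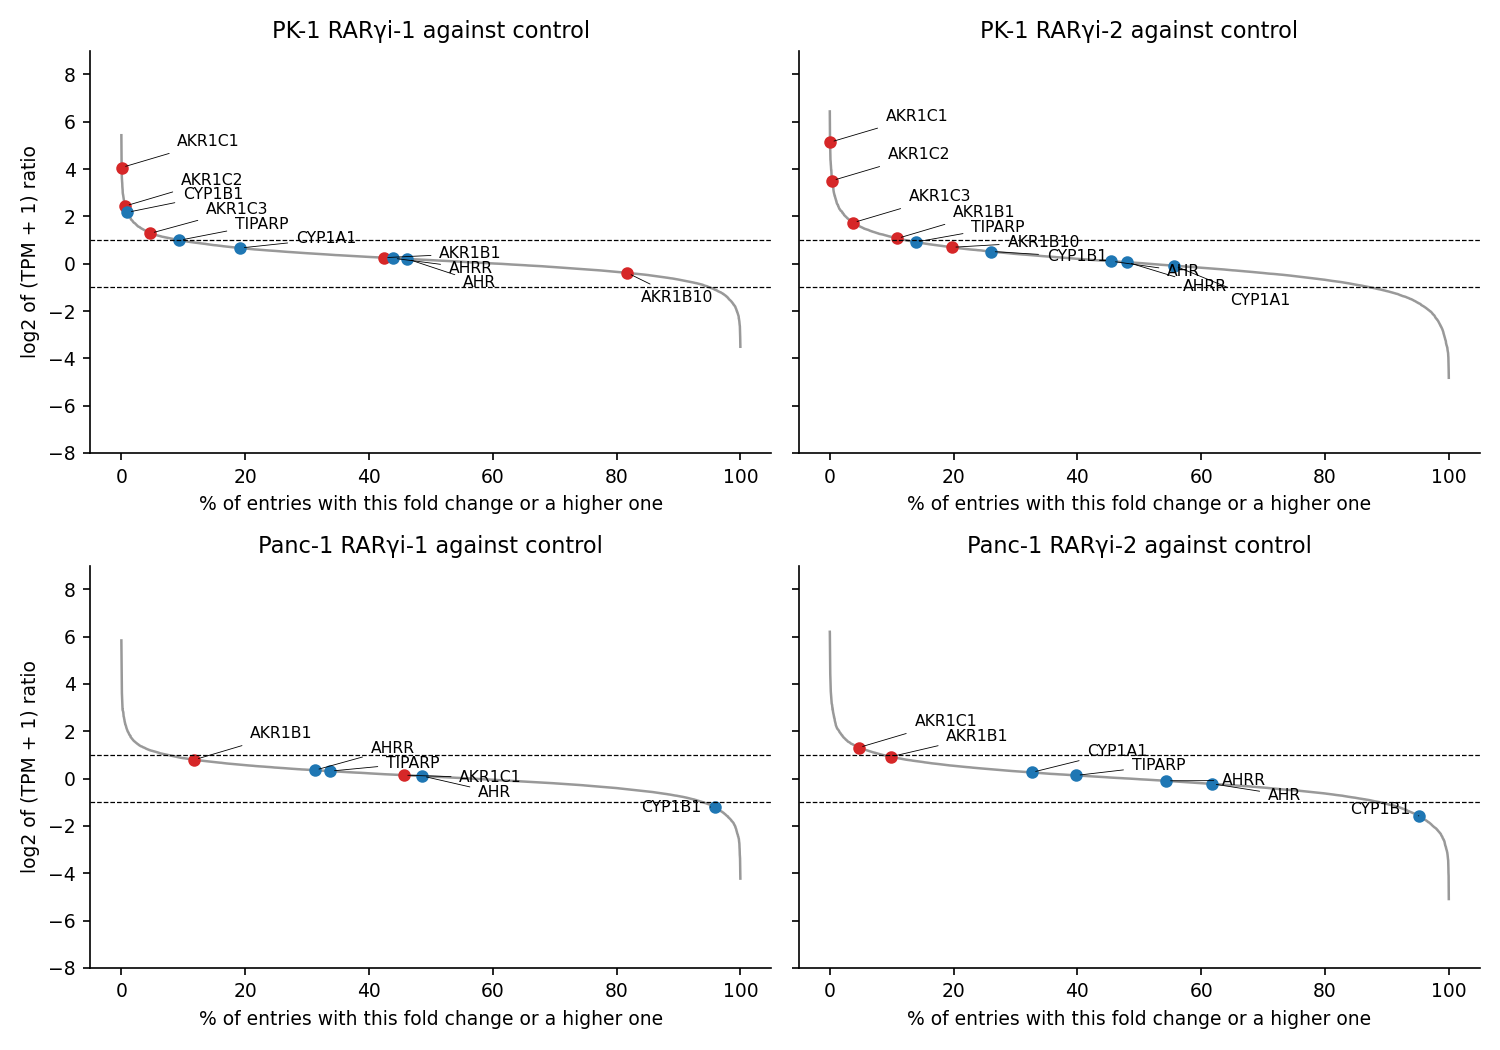
Log2 fold change of all entries above the floor, sorted from highest to lowest (grey line), against the percentage of entries with that value or a higher one, in the 4 comparisons. Points mark the aldo-keto reductases (red) and the AhR genes (blue), and dashed lines mark 2-fold; AKR1C1 sits at the upper end in PK-1, and CYP1B1 sits below the lower line in both Panc-1 panels.

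AHR itself (196) differed little between libraries of a line. It was at 17.5 TPM in the PK-1 control, 20.2 TPM under RARγi-1 and 18.8 TPM under RARγi-2. In Panc-1 it was at 7.15 TPM, 7.77 TPM and 5.99 TPM. The 4 log2 fold changes, from -0.22 to 0.20, were all smaller than the spread. AHRR (57491), which competes with AHR for ARNT, was at the floor in the PK-1 control and at 1.35 TPM and 1.09 TPM in the treated libraries. In Panc-1 it was at 11.6 TPM in the control, 15.1 TPM under RARγi-1 and 10.8 TPM under RARγi-2, and the log2 fold changes were 0.35 and -0.10. The Panc-1 control was therefore at least 11.6-fold above the PK-1 control for AHRR, while AHR was 2.44-fold higher in the PK-1 control.

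CYP1B1 (1545; chromosome 2, 38067509 to 38076151, GRCh38.p14), a P450 enzyme that oxidises oestrogens, polycyclic hydrocarbons and retinoids, went opposite ways in the lines. In PK-1 it was at 3.44 TPM in the control, 19.0 TPM under RARγi-1 and 5.34 TPM under RARγi-2. In Panc-1 it was at 60.2 TPM in the control, 25.6 TPM under RARγi-1 and 19.5 TPM under RARγi-2. Both treated libraries were above the control in PK-1 and below it in Panc-1. On the log2 scale the differences were 2.17 and 0.51 for PK-1, against -1.20 and -1.58 for Panc-1. Each exceeded the spread for its level, but 0.51 is within 2-fold and close to its spread of 0.44. The controls stood 17.5-fold apart, with Panc-1 the higher. Panc-1 was also the higher with RARγi-1 (25.6 against 19.0 TPM) and with RARγi-2 (19.5 against 5.34 TPM).

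CYP1A1 (1543), the P450 enzyme most used as a readout of AhR activity, was low throughout. In PK-1 it was at 4.73 TPM in the control, 8.07 TPM under RARγi-1 and 4.40 TPM under RARγi-2, and the log2 fold changes were 0.66 and -0.09. In Panc-1 it was at the floor in the control and with RARγi-1 and at 1.39 TPM with RARγi-2. No CYP1A1 value passed 2-fold. In PK-1, CYP1A1 and CYP1B1 were thus both highest in the RARγi-1 library.

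TIPARP (25976), a mono-ADP-ribosyltransferase that limits AhR signalling, was at 49.6 TPM in the PK-1 control, 99.4 TPM under RARγi-1 and 94.3 TPM under RARγi-2. Panc-1 had 22.7 TPM, 28.5 TPM and 25.0 TPM. The log2 fold changes of 0.99 and 0.91 in PK-1 lie just inside 2-fold and exceed the spread of 0.40, and that of RARγi-1 passes 2-fold without the pseudocount, at 2.01-fold. In Panc-1 they were 0.31 and 0.13, beside a spread of 0.30.

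The start regions of TIPARP and CYP1A1 are shown because both hold the AhR core, in capitals here (GCGTG, or CACGC where it lies on the other strand). The windows are the 250 bases before a RefSeq start, chr3:156674340-156674589 (plus strand, 1 of 3 annotated starts) for TIPARP and chr15:74725529-74725778 (minus strand) for CYP1A1, both in GRCh38.p14.
TIPARP: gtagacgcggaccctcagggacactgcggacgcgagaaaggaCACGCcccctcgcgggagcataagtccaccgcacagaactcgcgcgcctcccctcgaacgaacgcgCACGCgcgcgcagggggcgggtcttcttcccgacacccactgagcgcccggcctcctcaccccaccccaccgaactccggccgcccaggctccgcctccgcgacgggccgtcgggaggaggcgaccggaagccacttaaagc
CYP1A1: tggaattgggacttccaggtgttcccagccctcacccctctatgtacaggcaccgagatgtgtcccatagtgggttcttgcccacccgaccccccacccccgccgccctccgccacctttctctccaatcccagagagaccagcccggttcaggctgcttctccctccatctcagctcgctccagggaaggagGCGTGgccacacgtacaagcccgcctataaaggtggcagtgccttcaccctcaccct
TIPARP holds the core at 208 and 142 bases before the start and CYP1A1 at 57 bases before it. The windows of the other 2 TIPARP starts do not hold it. The core was also found in both windows of AHRR and at 1 site of AKR1B1, which its 2 overlapping windows share, but not in the window of AHR. It is a short motif, present in 32.2% of all windows, and a match is no evidence of binding. Sites further from a start were not searched. Windows were found for 8 of the 10 genes, and AKR1B10 and CYP1B1 were not searched.

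The partners of AhR gave no count above the background. Of 5 genes (ARNT, ARNT2, HSP90AA1, HSP90AB1 and PTGES3), all but ARNT2 were above the floor in PK-1 and all 5 in Panc-1, and 0 passed 2-fold in any comparison. ARNT, the DNA-binding partner, was at 11.7, 15.7 and 11.6 TPM in the control, RARγi-1 and RARγi-2 libraries of PK-1 and at 17.0, 21.4 and 16.6 TPM in those of Panc-1. Of the 6 enzymes of tryptophan breakdown that can give AhR ligands, of which 4 or 5 were above the floor in a comparison, 0 passed 2-fold in any comparison either. For lists this small a count of 0 is near the share of all entries, which was between 4.96% and 12.6% in a direction. IDO1, which opens the kynurenine route, was between 3.54 and 6.95 TPM in the 6 libraries.

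The other AhR targets were mixed. Of 12 genes, 11 were above the floor in PK-1, where 2 were past 2-fold up with RARγi-1, and with RARγi-2 2 were up and 2 down. The shares of all entries were 9.25% up with RARγi-1, and 12.1% up and 12.6% down with RARγi-2, so that the counts in PK-1 are near the background. In Panc-1, 6 were above the floor, with 2 (RARγi-1) and 3 (RARγi-2) past 2-fold up, beside 7.4% and 8.5% of all entries, and 0 down. NQO1, a quinone reductase shared by the AhR and NRF2 routes, was at 564, 762 and 810.4 TPM in PK-1 and at 193, 473 and 549 TPM in Panc-1 (order: control, RARγi-1, RARγi-2). It was past 2-fold up in both Panc-1 comparisons and in neither PK-1 comparison, where the log2 fold changes were 0.44 and 0.52. EREG, an EGF receptor ligand, had log2 fold changes of 1.66 with either compound for PK-1, and of 0.87 and 1.08 for Panc-1. ALDH3A1, an aldehyde dehydrogenase, was between 369.5 and 619.7 TPM in PK-1 (ratios within 2-fold) and at the floor in Panc-1.

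The NRF2 list was the only one of the accompanying lists in which most genes passed 2-fold in every comparison. Of its 12 genes, 8 were past 2-fold up in each PK-1 comparison and 9 in each Panc-1 comparison, with 0 down. Of all entries, 9.25% and 12.1% were past 2-fold up for PK-1 and 7.4% and 8.5% for Panc-1. For PK-1 the list median was 1.28 under RARγi-1 and 1.72 under RARγi-2, and for Panc-1 it was 1.73 and 2.09. MAFG, GCLC, GCLM, TXNRD1, SRXN1, SLC7A11, OSGIN1 and HMOX1, 8 of 12, were past 2-fold up in all 4 comparisons, beside 2.72% of all entries. GCLM, a subunit of the enzyme that starts glutathione synthesis, was at 31.3, 64.7 and 112 TPM in PK-1 and at 17.9, 58.1 and 78.1 TPM in Panc-1. SRXN1, which repairs oxidised peroxiredoxins, was at 54.3, 198 and 269.8 TPM in PK-1 and at 90.8, 665 and 946 TPM in Panc-1. In Panc-1, these 8 genes were past 2-fold up in libraries where AKR1C2, AKR1C3 and AKR1B10 were at the floor, as in the control. The remaining reductases of the 10 genes, AKR1B1 and AKR1C1, were above their control in both of these libraries. Their log2 fold changes, RARγi-1 first, were 0.80 and 0.92 for AKR1B1, and 0.14 and 1.31 for AKR1C1, measured against the floor. A link between the NRF2 genes and the reductases was not tested. NFE2L2, which encodes NRF2, had log2 fold changes between 0.30 and 0.82, and its inhibitor KEAP1 between -0.31 and 0.19. The study also named the NRF2 pathway from these libraries, so the list is not independent evidence.

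**Figure D5:**
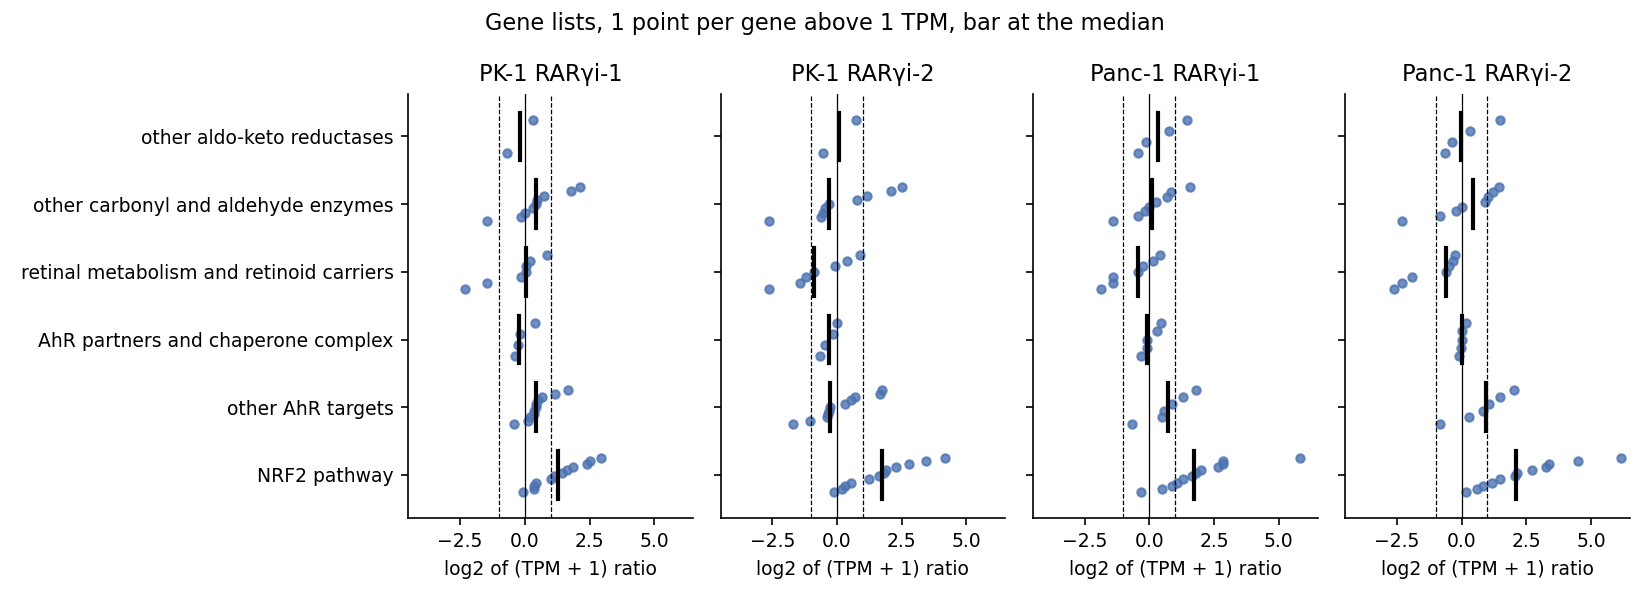
Log2 fold change on the scale of log2 of (TPM + 1) for genes of 6 accompanying lists in the 4 comparisons, 1 point per gene above the floor, with a black bar at the list median and dashed lines at 2-fold. The NRF2 medians lie between 1.28 and 2.09, and those of the AhR partners between -0.30 and 0.01.

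Of 8 other aldo-keto reductases, 2 were above the floor in PK-1, where 0 passed 2-fold, and 4 in Panc-1, where 1 of 4, AKR1A1, passed 2-fold up with each compound, beside 7.4% and 8.5% of all entries. AKR1A1, aldehyde reductase, was at 87.6, 109 and 146 TPM in PK-1 and at 88.9, 245 and 248 TPM in Panc-1, with log2 fold changes of 0.32, 0.73, 1.45 and 1.47. AKR7A2, which reduces succinic semialdehyde, was below the control in all 4 comparisons, between -0.67 and -0.45, within 2-fold. AKR1C4, AKR1D1, AKR1B15 and AKR7L were at the floor in all 6 libraries, and AKR1E2 and AKR7A3 in those of PK-1.

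The other carbonyl and aldehyde enzymes held 1 gene past 2-fold up and 1 past 2-fold down in all 4 comparisons. These are of 8 genes above the floor in all 4, beside 2.72% and 2.21% of all such entries. ALDH2, the mitochondrial aldehyde dehydrogenase, was at 4.02, 20.9 and 27.4 TPM in PK-1 and at 14.4, 44.8 and 41.4 TPM in Panc-1. ALDH1A3, which makes retinoic acid from retinal, was at 627, 224 and 102 TPM in PK-1 and at 55.6, 20.5 and 10.4 TPM in Panc-1. Its log2 fold change was -1.48 and -2.61 for the PK-1 libraries and -1.40 and -2.32 for those of Panc-1. PTGR1, which acts on leukotrienes and lipid aldehydes, was past 2-fold up in PK-1 (64.8, 227 and 279.5 TPM) and within 0.03 of no change in Panc-1 (52.9, 51.9 and 53.1 TPM). CBR3, a carbonyl reductase, passed 2-fold with RARγi-2 in both lines, at 1.14 and 1.23.

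In the list of retinal metabolism and retinoid carriers, 0 of the 7 genes above the floor passed 2-fold up in any comparison. Past 2-fold down were 2 genes (RARγi-1) and 3 genes (RARγi-2) of PK-1, and 3 genes with either compound of Panc-1, beside 4.96%, 12.6%, 6.03% and 11.2% of all entries in the same order. The upward shares of all entries were 7.4% to 12.1%. DHRS3, which turns retinal into retinol as AKR1B10 does, was at 117, 22.8 and 62.3 TPM in PK-1 and at 26.4, 6.58 and 6.27 TPM in Panc-1. In both lines it was lower in each treated library than in the control, with log2 fold changes from -2.30 to -0.90.

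The entries nearest to 3 of the 10 genes were sought over the 4 log2 fold changes, by Euclidean distance, among 10629 entries with 10 TPM or more in at least 1 library. For AKR1C1 they were SDCBP2, IGFBP1 and TMEM45B, at distances of 0.880, 1.25 and 1.52. The Panc-1 values of AKR1C1 are measured against the floor, and those of TMEM45B were 0 with both compounds. These distances are therefore uncertain, and being nearest does not make these entries close to AKR1C1. For CYP1B1 they were SLC9A3R2, PDE9A and FANK1, at 0.691, 0.978 and 0.997. For TIPARP they were MUS81, TRPC1 and SECISBP2L, at 0.0491, 0.130 and 0.140. AKR1B10 and CYP1A1 did not reach 10 TPM in any library.

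Over the series, between 13149 and 13652 entries per library were above the floor. RARG, the gene of the inhibited receptor, was at 51.1, 37.5 and 23.5 TPM in PK-1 and at 30.1, 8.83 and 3.27 TPM in Panc-1, which checks neither compound since both act on the protein. FABP5, a retinoid and fatty acid carrier that the study uses with KRT13 as a readout of the receptor, was at 516, 170.3 and 149 TPM in PK-1 and at 234, 179.8 and 166 TPM in Panc-1, and KRT13, a keratin, was at 3457, 655 and 358 TPM in PK-1 and at the floor in Panc-1. The epithelial keratins KRT8, KRT18 and KRT19 were within 2-fold in PK-1, where CDH1 was past 2-fold up with RARγi-2 at 1.17, and between -3.21 and -1.99 in Panc-1, where CYP1B1 was lower and CDH1 at the floor. EPCAM was between 497 and 578 TPM in PK-1 and between 9.18 and 19.4 TPM in Panc-1. Of 9 markers of other cell types, PTPRC, PECAM1, VWF, DCN, LUM, CPA1 and INS were at the floor in all 6 libraries. The summed level of the 9, which is that of CD68 (a lysosomal protein of macrophages) and PRSS1 (an acinar protease), was 20.9 TPM in the PK-1 control and 106 and 83.9 TPM in its treated libraries, where the AKR1C genes were higher. In Panc-1 the sum was between 238 and 276 TPM. The part of these differences in the results for the 10 genes was not tested.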

How the data were processed

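RNA-seq covered PK-1 and Panc-1 cells in 6 conditions with 1 library each. The authors deposited log2 values of TPM, with values under 1 TPM raised to 1 TPM, as read from the files. The submitters' processing notes name hg38. The aligner, counter and annotation are not given in the sources used here. TPM keeps no depth, so no interval was given.

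Libraries were assigned by title. The 10 genes and all lists were chosen with earlier results of these data known. The pseudocount was 1 TPM and the fold limit 2, over entries above 1 TPM in either library of a comparison. No test was made. Alternatives were pseudocounts of 0.1 and none, median-ratio rescaling over entries with at least 5 TPM in all 6 libraries, a minimum of 5 TPM, no filter, fold limits of 3 and 1.5, and summing entries of a symbol. The spread is a scaled median absolute deviation, by level, of RARγi-2 minus RARγi-1 on the log2 scale.

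Genes named were the 10, list genes past 2-fold the same way in all 4 comparisons with up to 3 more per list by role, and the 3 nearest entries to AKR1C1, CYP1B1 and TIPARP. In the list of AhR partners, 1 gene was left out and is not reported here. Where more than 3 others of a list are named, they were chosen after their values were seen. Coordinates and start regions are from RefSeq GRCh38.p14, transcripts from GENCODE 29. Python 3.11.15, pandas 2.3.3 and Biopython 1.88 were used. The fold calls were tested on simulated data with changes well past 2-fold, planted only in entries well above the floor. That test does not cover calls at low levels or near 2-fold.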

Additional observations from a re-analysis of the deposited data

Results flagged for a closer look

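CYP1B1 stood out because both treated PK-1 libraries were above their control and both treated Panc-1 libraries were below theirs. Its mean log2 fold change was 1.34 in PK-1 and -1.39 in Panc-1, a difference of 2.73. The PK-1 mean joins 2.17 with RARγi-1 and 0.51 with RARγi-2. The value of 0.51 is within 2-fold and little above the spread of 0.44. Both PK-1 values use the same control library, at 3.44 TPM. This difference between the lines was not tested, as there is 1 library per condition.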

How the results depend on the processing

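At the 2-fold limit, the genes up in PK-1 numbered 4 or 5 with RARγi-1 and 4 with RARγi-2. With either compound they numbered 3 at a fold limit of 3 and 6 at a limit of 1.5. In PK-1, 0 genes were down under any alternative. In PK-1 with RARγi-1, TIPARP joined the 4 genes with a pseudocount of 0.1 or none. The Panc-1 counts rest on single genes. With a fold limit of 1.5, the upward count was 1 with RARγi-1 (AKR1B1) and 2 with RARγi-2 (AKR1B1 and AKR1C1). With a fold limit of 3 it was 0 with RARγi-2, and the downward count was 0 with each compound because CYP1B1 lay between the limits. With a minimum of 5 TPM the upward count with RARγi-2 was 0, because AKR1C1 was left out. Rescaling moved the log2 fold changes by between -0.11 and 0.05, and no fold change of the 10 genes changed sign under it or without a pseudocount. Of the 33 fold changes, 32 moved by less than the spread with a pseudocount of 0.1 and with none; the exception was AKR1C1 in Panc-1 with RARγi-2, at 1.88 and 1.98. No symbol of the 10 was repeated, so summing entries changed nothing. The library titles carry no replicate number, and each treated library was compared with the control of its own line. A fit over both lines with the line as a block was not made. Without replicates, no difference given here can be told from variation between cultures, which the spread does not measure. Without read numbers, values near 1 TPM are the least certain, as are differences near the spread.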
